A study of Mus musculus with 12 samples.

Results

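Selective autophagy receptors are proteins that hold a cargo on one side and a lipidated ATG8 protein on the growing autophagosome membrane on the other. The transcripts of 10 of them were followed in mouse liver, taken by gene symbol from the 24411 genes of the deposited count table. They were Sqstm1 (which encodes p62), Nbr1, Optn, Tax1bp1, Tollip, Calcoco1, Ncoa4, Bnip3, Bnip3l and Fundc1. All 10 were present in the table, and all 10 were among the 13922 genes with enough counts to be tested. Poly(A) RNA from whole liver had been sequenced at 3 months of age on a C57BL/6 background, with 3 mice in each of 3 genotypes and 1 column of gene counts per mouse. The cont livers carried Atg7 flox/flox alone, with both Sqstm1 alleles wild-type. The Atg7-KO livers carried Atg7 flox/flox with Alb-Cre, a Cre driven by the albumin promoter that recombines in hepatocytes and leaves the other cells of the liver with their floxed alleles. The Atg7-KO;p62-T352A livers, here called double-mutant livers, carried Atg7 flox/flox, Alb-Cre and the T352A substitution on both alleles of the endogenous Sqstm1 gene, introduced by prime editing in embryonic stem cells. Every genotype therefore carried the floxed Atg7 allele. Another labelled genotype, p62-T352A without Cre (3 mice), was not analysed here. The design asks how each receptor transcript stood when autophagosome formation was blocked in hepatocytes, and how it stood when the p62 that accumulates there could not hold KEAP1.

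p62 is degraded by autophagy together with the ubiquitinated proteins it gathers, so that its protein builds up when ATG7, the enzyme that activates ATG8 proteins for lipidation, is lost. It also binds KEAP1, the adaptor that marks the transcription factor NRF2 for destruction, and Sqstm1 is itself a known NRF2 target. The other receptors divide by cargo. NBR1, OPTN, TAX1BP1 and TOLLIP bind ubiquitin, CALCOCO1 serves the endoplasmic reticulum and Golgi, NCOA4 delivers ferritin, and BNIP3, BNIP3L and FUNDC1 sit in the outer mitochondrial membrane and mark mitochondria for removal. RNA levels do not measure the proteins, whose turnover is what autophagy changes directly.

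The codon that the mutant mice carry altered is shown because it separates the double-mutant genotype from Atg7-KO. In the reference transcript ENSMUST00000102774.10 of Sqstm1 (GRCm38, GENCODE vM21), the Thr replaced in T352A is encoded in exon 7 of 8, at chr11:50202514-50202516 on the minus strand. The coding stretch below covers chr11:50202484-50202546 and is written 5′ to 3′ along the gene with the Thr codon in capitals. It is the reference sequence, since the table of counts does not show the edited base.
Sqstm1 codon stretch: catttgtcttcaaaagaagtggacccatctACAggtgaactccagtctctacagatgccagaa

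Some libraries stood apart from the rest of their group. The total of the deposited counts ranged from 9671080 to 23285132 per liver, and the highest total belonged to cont mouse 1. The median Spearman correlation of that library with the other cont livers was 0.918, against at least 0.943 for cont mice 2 and 3, at least 0.991 in the Atg7-KO group and at least 0.976 in the double-mutant group. On the second principal component of log2 CPM (counts scaled to equal library totals), which held 15.6% of the variance, cont mouse 1 lay at 94.5 and the other cont livers at 16.1 and -3.73. In each genotype the mouse numbered 1 also differed from the other two in Xist, the long RNA of the inactive X chromosome, with 7 to 28 counts against 8578 to 18335, so that mouse 1 and mice 2 and 3 are given separately where a call depended on them. Sex is not among the labels used here. Counts of Y-linked genes ran from 2101 to 2773 in the 3 livers with little Xist and from 19 to 613 elsewhere, the 613 belonging to cont mouse 2 beside 12492 of Xist.

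The deleted gene was read first. Atg7 (chr6:114643097-114860614) was at 46.4, 44.2 and 55.4 normalized CPM in cont mice 1 to 3, at 10.1, 9.6 and 12.0 in Atg7-KO and at 29.7, 27.4 and 29.5 in double-mutant livers. Normalized CPM here are CPM scaled by the trimmed mean of M values (TMM). The 3 groups did not overlap. Relative to cont, Atg7 fell by 2.20 on the log2 scale in Atg7-KO (SE 0.17, adjusted p = 2.55e-05 in edgeR's quasi-likelihood test) and by 0.75 in double-mutant livers (SE 0.16, adjusted p = 0.0206). Between the 2 Cre-carrying genotypes the double mutant held 2.73-fold more Atg7 RNA (adjusted p = 1.64e-04). Gene counts include exons outside the floxed segment and reads from cells that do not express Cre. Whether the 2 genotypes were recombined to the same extent was not tested here. In the study's liver immunoblots, ATG7 protein was close to undetectable in both Cre-carrying genotypes.

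The cell type markers of the liver moved with genotype as well. The summed normalized CPM of 7 hepatocyte markers was 92907 ± 27538 in cont, 37211 ± 1154 in Atg7-KO and 116281 ± 7872 in double-mutant livers (SD, n = 3 each). Albumin, the most abundant of them, was at 44371 to 91863 in cont, 24669 to 27313 in Atg7-KO and 74513 to 84968 in double-mutant livers. The 10 macrophage markers, led by Clec4f, summed to 358 ± 69.3, 1170 ± 36.2 and 298 ± 96.3 in the same order, and the 5 cholangiocyte markers, led by Spp1, to 42.4 ± 8.90, 924 ± 97.9 and 210 ± 47.8. The gene that leads a list is the one with the highest mean over all 9 livers. In Atg7-KO, Lyz2 at 324 and Cd5l at 235 stood above Clec4f at 182, which was not called against cont. The 8 stellate cell markers, led by Col3a1, summed to 134 ± 10.1, 777 ± 116 and 221 ± 71.4. The 6 lymphocyte markers, led by Ptprc, summed to 24.4 ± 9.35, 61.7 ± 4.22 and 23.6 ± 2.12, and the 5 erythroid markers, led by Hba-a2, to 783 ± 306, 352.4 ± 34.1 and 749 ± 172. The 6 endothelial markers, led by Stab2, summed to 285 ± 32.4, 264 ± 5.51 and 150 ± 15.3. No marker of any list was at 0 in every liver. Called genes of these lists were, in Atg7-KO against cont, 6 of 7 hepatocyte markers lower, 8 of 10 macrophage markers higher and 1 lower (Timd4), 4 of 5 cholangiocyte, 6 of 8 stellate and 3 of 6 lymphocyte markers higher, and 2 of 5 erythroid markers lower. A call, as defined in the next paragraphs, fell on 43.7% of all tested genes in that comparison. Endothelial markers were divided, with 3 of 6 called higher (Lyve1, Cdh5 and Pecam1, at 2.97-fold, 1.69-fold and 1.53-fold) and Stab2 called 2.27-fold lower. In double-mutant livers 4 of the 6 endothelial markers were called lower against Atg7-KO and 4 of 6 against cont, where 26.2% and 5.34% of all tested genes were. Against cont 3 of 5 cholangiocyte, 2 of 10 macrophage and 2 of 8 stellate markers were called higher there, where 6.25% of all tested genes were, and 1 of 7 hepatocyte and 1 of 5 erythroid markers lower. Against Atg7-KO 6 of 7 hepatocyte, 2 of 5 erythroid and 1 of 10 macrophage markers were called higher, and 8 of 10 macrophage, 6 of 8 stellate, 3 of 5 cholangiocyte, 2 of 6 lymphocyte and 1 of 5 erythroid markers lower. In whole liver, fewer cells of a type and less RNA per cell cannot be told apart, and the part of these shifts in the receptor differences was not tested.

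**Figure D1:**
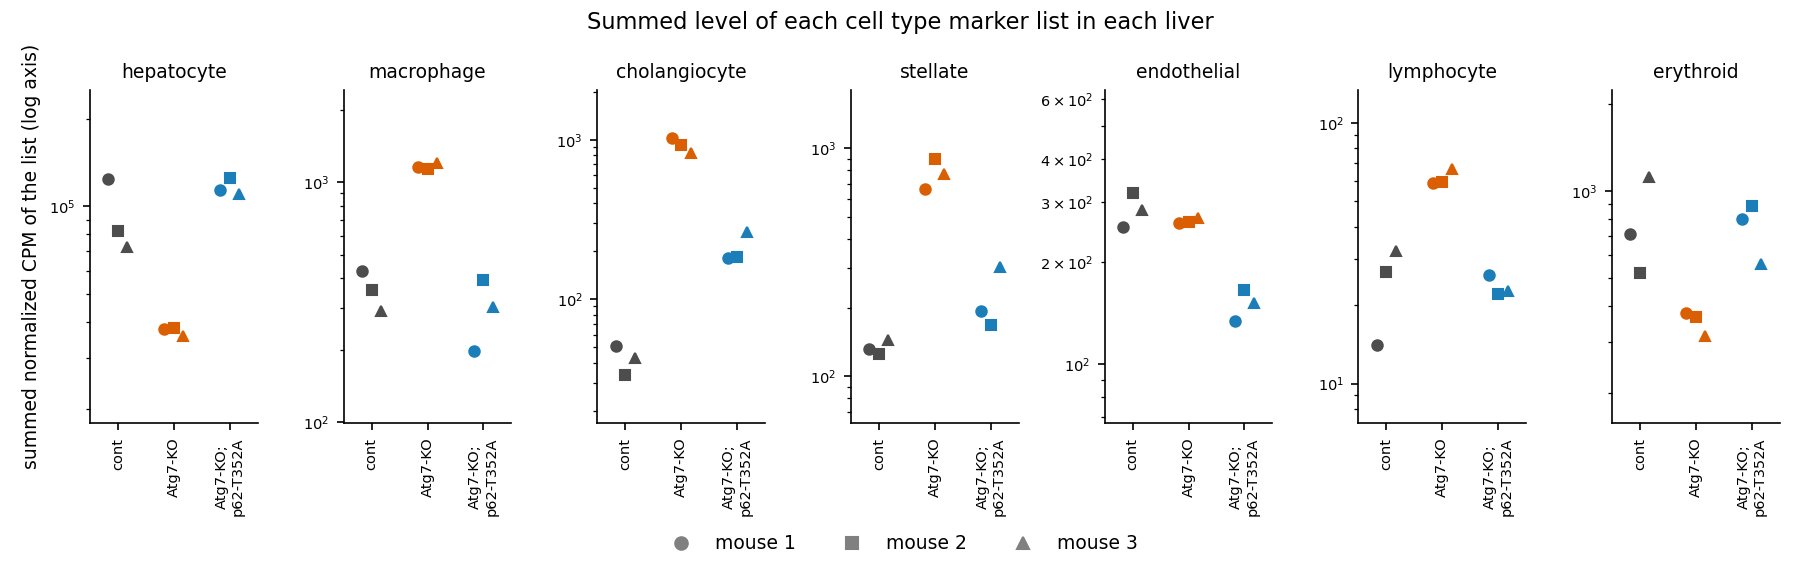
Summed normalized CPM of 7 cell type marker lists in each liver, with a log axis for each list and 1 point per mouse. Hepatocyte markers were lowest and macrophage, cholangiocyte, stellate and lymphocyte markers highest in the 3 Atg7-KO livers.

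A gene was called when its Benjamini-Hochberg adjusted p in edgeR's quasi-likelihood test was under 0.05 and its fold change over 1.5. In Atg7-KO against cont, 2 of the 10 receptors were called higher (Sqstm1 and Fundc1), where 21.6% of all tested genes were, and 1 was called lower (Optn), where 22.1% were. In double-mutant against Atg7-KO livers, 2 were called higher (Optn and Bnip3), against 24.7% of all tested genes, and 2 lower (Sqstm1 and Fundc1), against 26.2%. In double-mutant against cont livers, no receptor was called in either direction, where 6.25% of all genes were called higher and 5.34% lower. DESeq2 also called none in that last comparison. In edgeR's test 3 receptors, Sqstm1, Tax1bp1 and Bnip3l, had an unadjusted p under 0.05 there, against 28.2% of all genes. The median log2 fold change over the 10 receptors was 0.16, 0.26 and 0.03 in the 3 comparisons, beside -0.03, 0.00 and 0.00 over all tested genes. In either direction 43.7%, 51.0% and 11.6% of all tested genes were called in the 3 comparisons, the shares against which the counts of the lists described further on stand. The first 2 comparisons share the Atg7-KO livers, so a receptor high or low in those 3 mice moves in opposite directions in both.

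**Figure D2:**
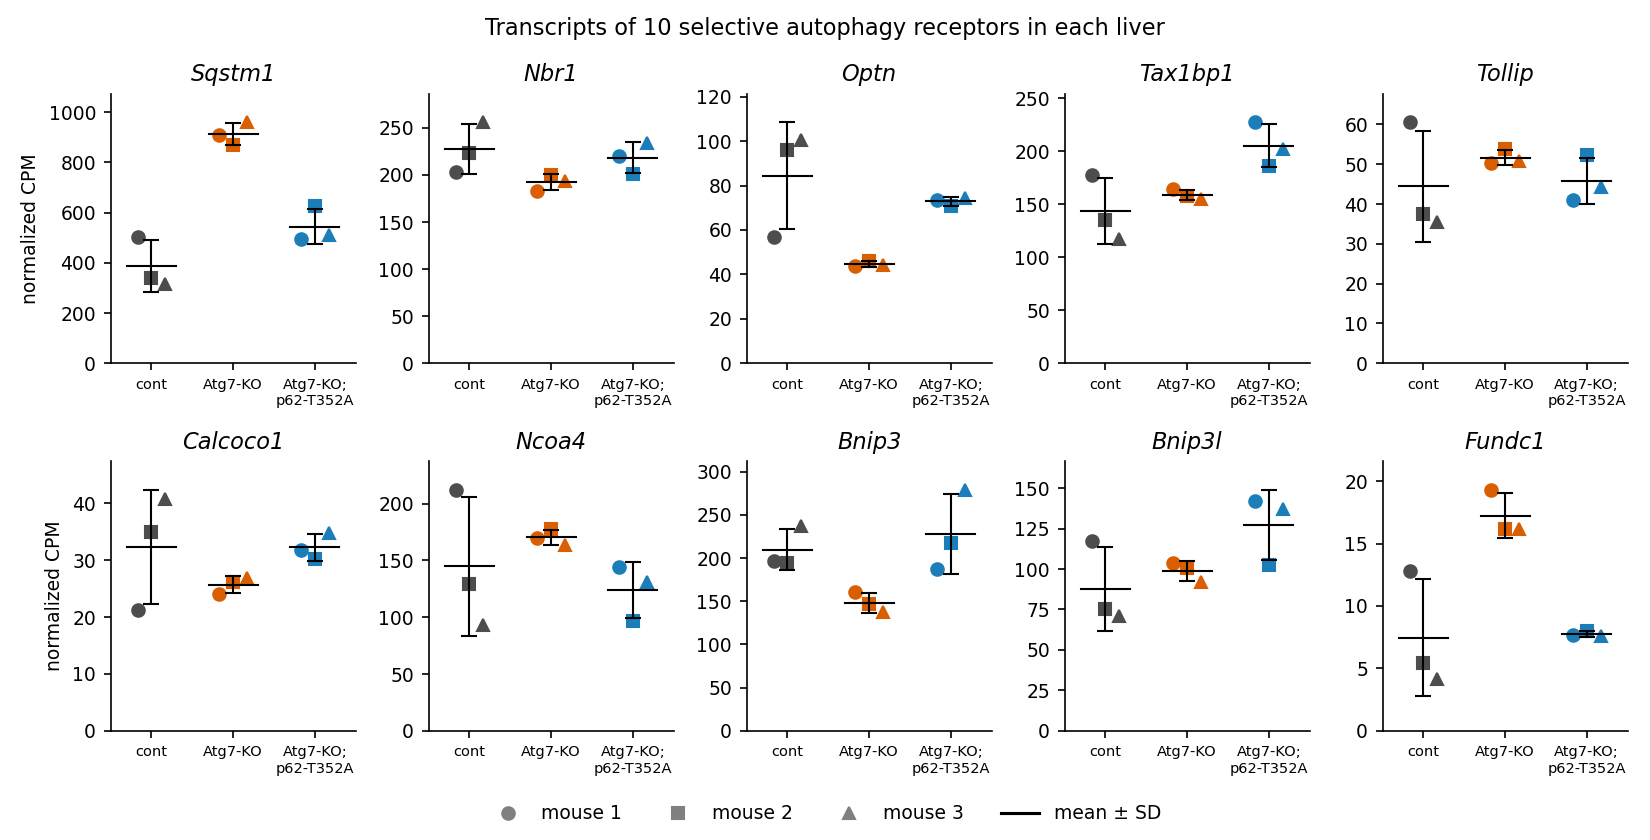
Normalized CPM of the 10 receptor transcripts in each of the 9 livers, 1 panel per gene with an axis from 0, 1 point per mouse, and the mean ± SD of 3 mice in black. Sqstm1 and Fundc1 are highest and Optn lowest in the 3 Atg7-KO livers, and cont mouse 1 lies apart from cont mice 2 and 3 for several genes.

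Sqstm1 (chr11:50199366-50210827, minus strand) encodes p62. It was at 505, 341 and 314 normalized CPM in cont mice 1 to 3, at 911, 871 and 960 in Atg7-KO and at 497, 626 and 511 in double-mutant livers. The Atg7-KO livers lay above all others, and the double-mutant livers overlapped cont only through cont mouse 1, which was the highest cont liver. Against cont the transcript rose 2.36-fold in Atg7-KO (log2 fold change 1.24, SE 0.22, adjusted p = 0.00189). Against Atg7-KO it was 1.68-fold lower in double-mutant livers (log2 fold change -0.75, SE 0.22, adjusted p = 0.0174). Against cont, double-mutant livers stood 0.49 higher on the log2 scale (95% interval 0.00 to 0.99), which missed the threshold (adjusted p = 0.177).

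The rise of Sqstm1 in Atg7-KO kept its call in all 19 alternatives tried, with log2 fold changes from 1.07 to 1.48. The lower level in double-mutant than in Atg7-KO livers kept its sign in all 19 but was past the threshold in 14. It missed the threshold when the test was made against a fold change of 1.5 (glmTreat, adjusted p = 0.198) and when Atg7-KO mouse 1 or 3 or double-mutant mouse 1 or 3 was left out (adjusted p = 0.0510 to 0.0634). The comparison with cont rested on cont mouse 1. Without that liver double-mutant livers were called higher by 0.73 (adjusted p = 0.0134), and with mice 2 and 3 alone by 0.80 (adjusted p = 0.0304). The mice numbered 1 had 505, 911 and 497 normalized CPM in the 3 genotypes, with 1 liver each and so no test. Reads of Sqstm1 may not be wholly its own. The gene overlaps Mrnip over 17.3% of its exon bases, 14.6% of its 75-base stretches occur in Mrnip transcripts, and the setting for strand in the counting is not given in the sources used here.

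Optn (chr2:5020642-5064051), which encodes optineurin, a ubiquitin-binding receptor of damaged mitochondria and bacteria, ran the other way. It was at 56.8, 96.0 and 100.5 normalized CPM in cont, at 43.6, 46.1 and 44.2 in Atg7-KO and at 73.3, 70.7 and 74.4 in double-mutant livers. The Atg7-KO livers lay below all others, and the double-mutant livers fell inside the cont range, between cont mouse 1 and cont mouse 2. Optn fell 1.89-fold in Atg7-KO (log2 fold change -0.92, SE 0.21, adjusted p = 0.00684). It was 1.63-fold higher in double-mutant than in Atg7-KO livers (log2 fold change 0.71, SE 0.21, adjusted p = 0.0188). Double-mutant against cont gave -0.21 (95% interval -0.69 to 0.26). With upper-quartile scaling the double-mutant rise was 0.57 and missed the fold threshold, and its call was lost when any 1 of the 3 Atg7-KO livers was left out (adjusted p = 0.0549 to 0.0638). The fall in Atg7-KO kept its call with each liver left out in turn.

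None of the other ubiquitin-binding receptors was called with all 9 livers. Nbr1 (chr11:101552149-101581951), a p62 relative that joins p62 in its condensates, was at 203, 224 and 256 normalized CPM in cont, 183, 200 and 193 in Atg7-KO and 220, 201 and 234 in double-mutant livers. Its log2 fold changes were -0.24, 0.18 and -0.06 in the 3 comparisons, with 95% intervals inside -0.61 to 0.55, and none was called. Tax1bp1 (chr6:52713729-52766780), which brings the autophagy initiation machinery to NBR1 and p62 condensates, was at 178, 135 and 117 in cont, 164, 158 and 155 in Atg7-KO and 227, 187 and 203 in double-mutant livers. Every double-mutant liver was above every other liver. The difference from cont was 0.52 on the log2 scale (SE 0.19, adjusted p = 0.108) and that from Atg7-KO 0.37 (adjusted p = 0.124). Without cont mouse 1 the former was called, at 0.71 (adjusted p = 0.00878), and with mice 2 and 3 alone at 0.63 (adjusted p = 0.0374). Tollip (chr7:141874813-141918507), an adaptor that also works in endosomal sorting and Toll-like receptor signalling, ranged from 35.4 to 60.5 over the 9 livers with overlapping groups, and its log2 fold changes were 0.21, -0.17 and 0.04.

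Calcoco1 (chr15:102706777-102722178), the receptor for endoplasmic reticulum and Golgi, was at 21.3, 35.0 and 40.8 normalized CPM in cont, 24.1, 26.2 and 26.8 in Atg7-KO and 31.8, 30.2 and 34.8 in double-mutant livers. The log2 fold changes were -0.33, 0.33 and 0.00 with none called, and cont mouse 1 was the lowest of all livers. Ncoa4 (chr14:32159865-32179855), which carries ferritin to the lysosome and so frees iron, was at 212, 130 and 92.8 in cont, 170, 178 and 164 in Atg7-KO and 144, 97.0 and 131 in double-mutant livers. The cont livers spanned both other groups. The log2 fold changes were 0.23, -0.46 and -0.23, with intervals reaching 0.87 and -1.10, and none was called. In the absence of cont mouse 1 Ncoa4 was called higher in Atg7-KO, at 0.61 (adjusted p = 0.0249), and so it was with mice 2 and 3 alone, at 0.62 (adjusted p = 0.0474).

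Among the mitochondrial receptors, Fundc1 and Bnip3 moved in opposite directions. Fundc1 (chrX:17556564-17572325), a receptor engaged in hypoxia, was at 12.8, 5.39 and 4.18 normalized CPM in cont, 19.3, 16.2 and 16.2 in Atg7-KO and 7.64, 7.99 and 7.57 in double-mutant livers. All Atg7-KO livers lay above all others, and cont mouse 1 lay above every double-mutant liver while cont mice 2 and 3 lay below. Fundc1 rose 2.26-fold in Atg7-KO (log2 fold change 1.18, SE 0.35, adjusted p = 0.0214) and was 2.23-fold lower in double-mutant than in Atg7-KO livers (log2 fold change -1.15, SE 0.35, adjusted p = 0.0197). Double-mutant against cont gave 0.02 (95% interval -0.77 to 0.82). When cont mouse 1 was left out, that difference was 0.69 and called (adjusted p = 0.0218), and with mice 2 and 3 alone it was 0.70 (adjusted p = 0.0471). Without cont mouse 1 the rise in Atg7-KO was 1.84 on the log2 scale, and it missed the threshold without cont mouse 2 (0.89, adjusted p = 0.120), cont mouse 3 (0.89, adjusted p = 0.0527) or Atg7-KO mouse 1 (1.09, adjusted p = 0.0687). The lower level in double-mutant livers missed it without Atg7-KO mouse 1 or any 1 of the double-mutant mice (adjusted p = 0.0529 to 0.0633), at -1.06 to -1.17.

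Bnip3 (chr7:138890836-138909519, minus strand), a target of hypoxia-inducible factor and of FOXO3 in other tissues, was at 197, 195 and 237 normalized CPM in cont, 160, 146 and 137 in Atg7-KO and 188, 218 and 279 in double-mutant livers. The Atg7-KO livers were the 3 lowest. The difference from cont was -0.50 on the log2 scale (SE 0.19), which missed the threshold (adjusted p = 0.0573). With mice 2 and 3 alone it was called, at -0.61 (adjusted p = 0.0323). Double-mutant livers held 1.54-fold more Bnip3 than Atg7-KO (log2 fold change 0.62, SE 0.19, adjusted p = 0.0213), a difference just past the fold threshold that upper-quartile scaling moved to 0.49 (adjusted p = 0.0658). It was also lost without Atg7-KO mouse 2 or 3 or double-mutant mouse 3 (adjusted p = 0.0746 to 0.0875), at 0.46 in the last case. Bnip3 shares 34.4% of its 75-base stretches with AC160336.1 and Gm45507, so part of its count may depend on how reads were divided. Bnip3l (chr14:66985239-67008877), the close relative needed for mitochondrial clearance in maturing red cells, was at 117, 75.2 and 70.7 in cont, 104, 100.5 and 91.7 in Atg7-KO and 142, 102 and 137 in double-mutant livers. None of its 3 differences was called, the largest being 0.53 in double-mutant against cont livers (adjusted p = 0.159). Without cont mouse 1 it was 0.80 and called (adjusted p = 0.00890), and with mice 2 and 3 alone 0.71 (adjusted p = 0.0342). Bnip3l shares 16.9% of its stretches with Bnip3l-ps and Ncoa4 16.9% with Gm6768.

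**Figure D3:**
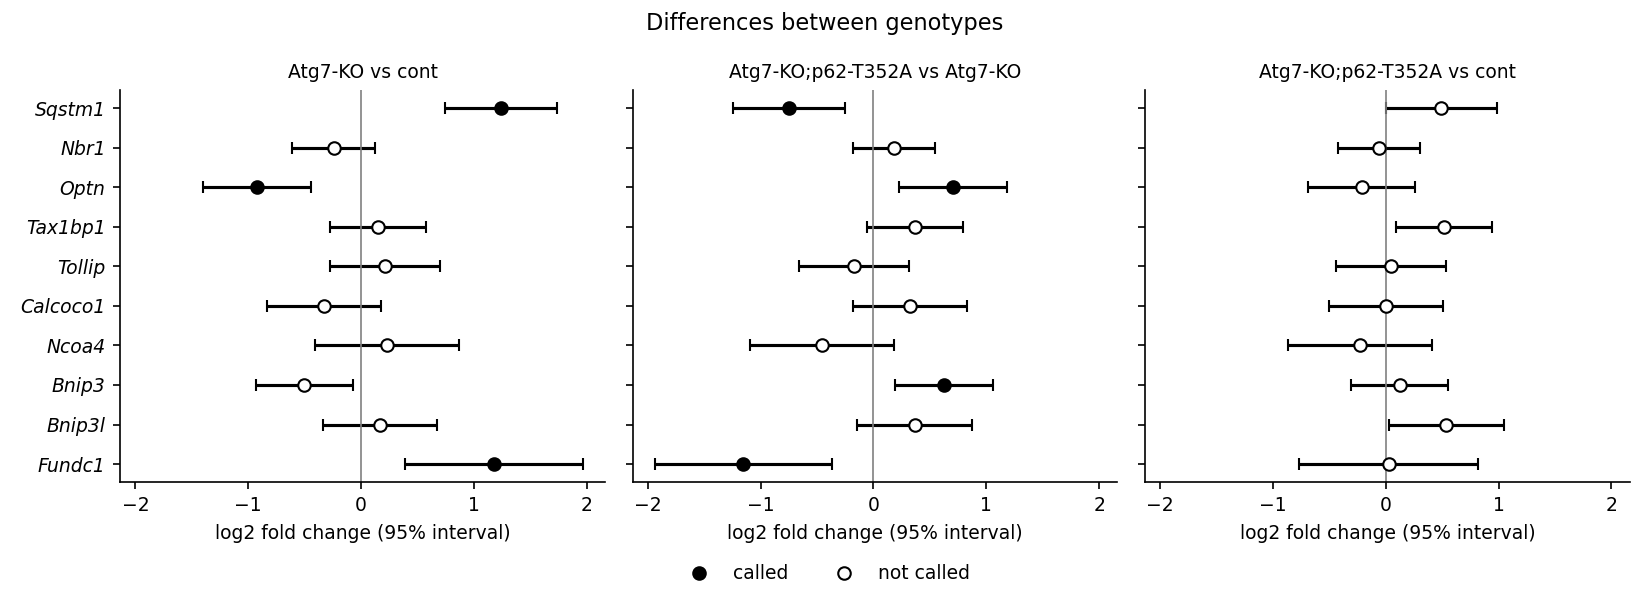
Log2 fold changes of the 10 receptors with 95% intervals in 3 comparisons of genotypes, filled where the gene was called. Sqstm1 and Fundc1 lie to the right in Atg7-KO against cont and to the left in double-mutant against Atg7-KO livers, which share the Atg7-KO mice, and no receptor is filled in double-mutant against cont livers.

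Cont mouse 1 weighed on the receptors as a group. In double-mutant against cont livers 0 receptors were called with all 9 livers, but 4 were called higher without cont mouse 1 (Sqstm1, Tax1bp1, Bnip3l and Fundc1), where 10.7% of all genes tested were. With mice 2 and 3 alone the number was again 4, against 9.35% of all genes.

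To compare receptors with each other, normalized CPM were divided by the length of each gene's merged exons in kilobases (RPKM). In cont livers Sqstm1 was first at 115 ± 30.7 RPKM (SD, n = 3) and Bnip3 second at 92.5 ± 10.5, and the livers of these 2 overlapped. Nbr1 followed at 33.1 ± 3.88, Bnip3l at 22.7 ± 6.67, Optn at 22.5 ± 6.39, Ncoa4 at 15.5 ± 6.53, Tax1bp1 at 14.4 ± 3.13, Tollip at 8.79 ± 2.75, Calcoco1 at 5.64 ± 1.75 and Fundc1 at 3.17 ± 1.99. From Nbr1 down, each neighbour in that order overlapped the next. In Atg7-KO livers Sqstm1 stood at 272 ± 13.2 and Bnip3 at 65.3 ± 5.09, with no overlap. Nbr1 and Bnip3l were the only neighbours that overlapped there, at 28.0 ± 1.24 and 25.6 ± 1.61, and Optn, which stood below 4 receptors in cont, stood below 6 at 11.9 ± 0.359. In double-mutant livers Sqstm1 stood at 162 ± 21.2 and Bnip3 at 100.7 ± 20.6, again without overlap. Bnip3l came next at 33.0 ± 5.63 and overlapped Nbr1, which stood at 31.8 ± 2.39. With the length of the longest coding transcript in place of merged exons, 5 of the 10 receptors kept their place in the order over all livers.

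Summed over the 10 receptors, the level was 374, 308 and 318 RPKM in cont mice 1 to 3, 464, 449 and 465 in Atg7-KO and 374, 405 and 417 in double-mutant livers. Sqstm1 made up 40.2%, 33.0% and 29.4% of that sum in cont, 58.5%, 57.9% and 61.5% in Atg7-KO and 39.5%, 46.0% and 36.5% in double-mutant livers. Its share in every Atg7-KO liver was above that in every other liver. The share of Bnip3 was 28.0% ± 4.82 in cont, 14.2% ± 1.11 in Atg7-KO and 25.1% ± 3.89 in double-mutant livers, and that of Optn was 6.92% ± 2.49, 2.59% ± 0.131 and 4.87% ± 0.304 (SD, n = 3). These shares sum to 100 in each liver, so the share of each receptor depends on the levels of the other receptors as well as on its own.

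**Figure D4:**
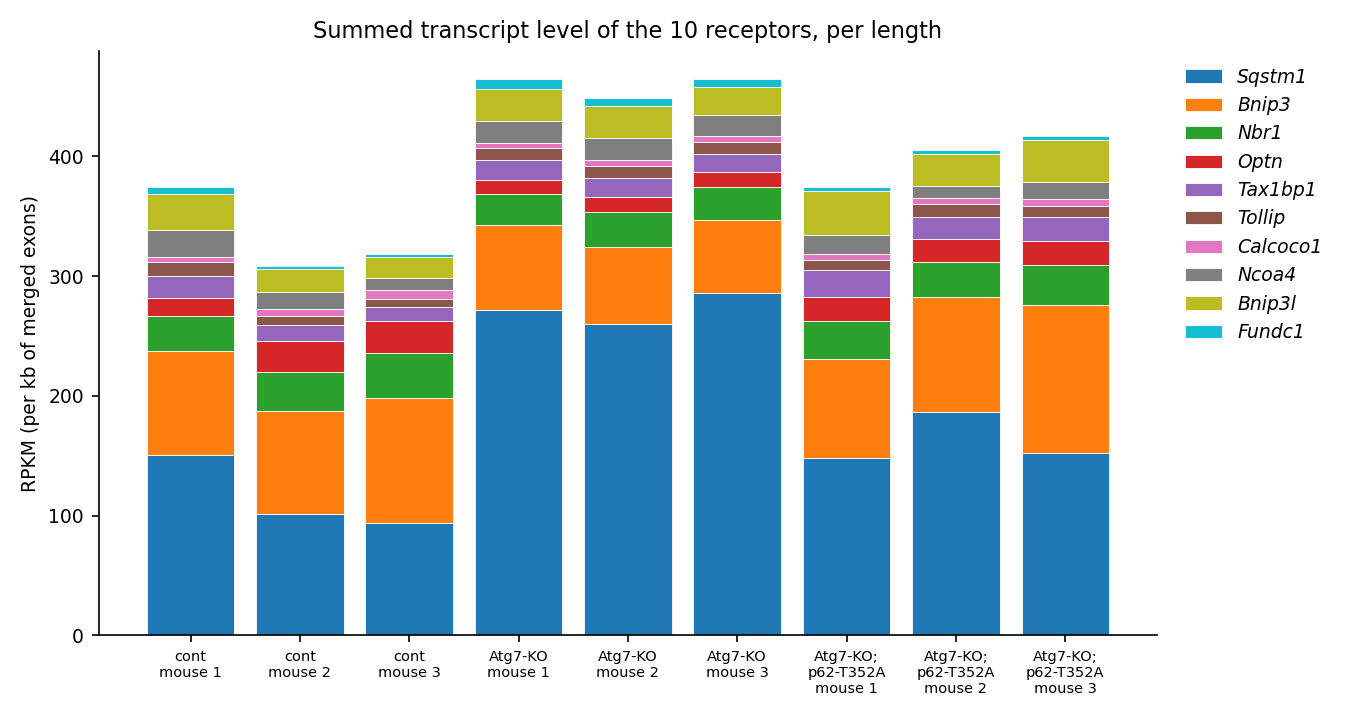
Level of the 10 receptor transcripts in RPKM (per kilobase of merged exons), stacked for each of the 9 livers with an axis from 0. Sqstm1 fills most of the bar in the 3 Atg7-KO livers, and Sqstm1 and Bnip3 are the 2 largest parts in every liver, with Bnip3 the larger in cont mouse 3.

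Of 19 further receptors named in mammals, 18 were tested, and Calcoco2 was listed at 0 counts in every liver. In Atg7-KO against cont 1 was called higher and 2 lower, with a median log2 fold change near that of all genes. Rtn3, a receptor of endoplasmic reticulum tubules, was called higher, just at the fold threshold (log2 fold change 0.59, SE 0.20, adjusted p = 0.0362). The call was lost with DESeq2 (0.55) and when any liver but cont mouse 1 was left out, at 0.41 without cont mouse 2 (adjusted p = 0.226) and 0.44 without cont mouse 3 (adjusted p = 0.110). Nipsnap1, a mitochondrial matrix protein that recruits receptors on damaged mitochondria, was at 318, 215 and 267 normalized CPM in cont and 150, 148 and 140 in Atg7-KO, and fell by 0.87 (SE 0.19, adjusted p = 0.00482). Sec62, a translocon subunit that serves in recovery from endoplasmic reticulum stress, fell by 0.69 (SE 0.18, adjusted p = 0.0120), a call lost without Atg7-KO mouse 2 or 3 and, at -0.57, with upper-quartile scaling. The number called was 8 of 18 without cont mouse 1, where 56.0% of all genes tested were called, and without Atg7-KO mouse 2 or 3 it was 1.

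In double-mutant against Atg7-KO livers 4 of the 18 were called higher and 4 lower. Sec62 had the largest difference, with 642, 630 and 750 normalized CPM in double-mutant livers, 173, 151 and 160 in Atg7-KO and 218, 275 and 286 in cont. The groups did not overlap, and double-mutant livers were 4.18-fold above Atg7-KO (log2 fold change 2.06, SE 0.19, adjusted p = 6.50e-05) and 2.59-fold above cont (log2 fold change 1.38, SE 0.18, adjusted p = 0.00568). Nipsnap1 was 0.99 higher than in Atg7-KO (adjusted p = 0.00199). The remaining called genes fall outside the naming rule and were singled out after their values were seen. Fkbp8 and Phb2, both mitochondrial, had log2 fold changes of 0.96 and 0.77. Retreg3 and Atl3 of the endoplasmic reticulum had -0.84 and -1.22, and Yipf3 and Yipf4 of the Golgi -0.85 and -0.95. Their adjusted p ran from 9.97e-04 to 0.0301 in edgeR's test. In double-mutant against cont livers 2 were called higher (Sec62 and Fkbp8) and 2 lower (Retreg3 and Atl3).

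**Figure D5:**
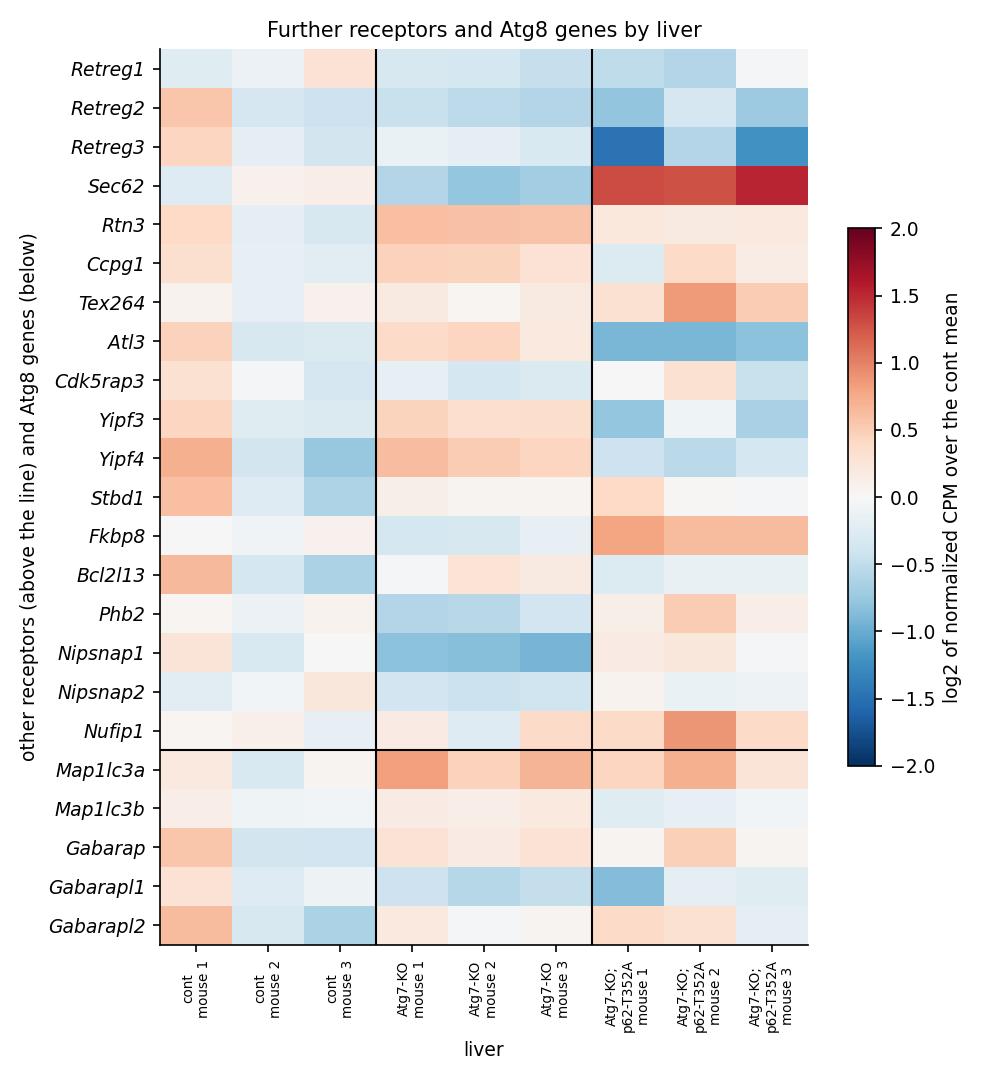
Log2 ratio of normalized CPM to the cont mean for 18 further receptors and 5 Atg8 genes (rows) in 9 livers (columns), red where above and blue where below the cont mean. Sec62 is above it in the 3 double-mutant livers and below it in the 3 Atg7-KO livers, and cont mouse 1 differs from cont mice 2 and 3 in many rows.

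The receptors bind ATG8 proteins, which Atg7 prepares for lipidation. Of the 5 Atg8 genes 1 was called in Atg7-KO against cont and none in the other 2 comparisons by edgeR or DESeq2, where 0 (double-mutant against Atg7-KO) and 1 (against cont) had an unadjusted p under 0.05 in edgeR's test. Map1lc3a was at 38.0, 26.8 and 34.4 normalized CPM in cont, 58.2, 45.5 and 52.9 in Atg7-KO and 44.5, 54.3 and 39.7 in double-mutant livers. It rose 1.58-fold in Atg7-KO (log2 fold change 0.66, SE 0.19, adjusted p = 0.0205), and the call was lost when cont mouse 2, Atg7-KO mouse 1 or Atg7-KO mouse 3 was left out. Map1lc3b, Gabarap and Gabarapl2 had log2 fold changes of 0.16, 0.25 and 0.07, of which the signs for Gabarap and Gabarapl2 turned when cont mouse 2 was left out. Gabarapl1 had -0.48 (adjusted p = 0.108), with every Atg7-KO liver below every cont liver. In Atg7-KO 2 of the 5 were called without cont mouse 1, Map1lc3a and Gabarap, the latter at 0.63 (adjusted p = 0.00901).

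Of 23 partners of the receptors (kinases, ubiquitin genes, PB1 partners, KEAP1 and its ligase, adaptors), there were 2 called higher and 4 called lower when Atg7-KO was set against cont, with a median log2 fold change of -0.23. Keap1 itself was at 52.3, 53.8 and 55.5 normalized CPM in cont, 50.3, 54.4 and 53.2 in Atg7-KO and 59.1, 77.3 and 64.0 in double-mutant livers. In Atg7-KO against cont it differed by -0.03 on the log2 scale (95% interval -0.38 to 0.31), and its sign turned with upper-quartile scaling. Mvp, the major vault protein, rose 3.66-fold in Atg7-KO (log2 fold change 1.87, SE 0.22, adjusted p = 1.84e-04) and was 1.99-fold lower in double-mutant livers than there (adjusted p = 0.00349). Prkci, an atypical protein kinase C that binds p62 through its PB1 domain, rose by 0.72 (adjusted p = 0.0101, or 0.0549 without cont mouse 2), while Map2k5, another PB1 partner, fell by 0.93 (adjusted p = 0.00134). Csnk2a1, a catalytic subunit of casein kinase 2, which phosphorylates p62 and OPTN, fell by 0.69 (adjusted p = 0.00550). After upper-quartile scaling its fall, 0.58, was under the fold threshold. In double-mutant livers Csnk2a1 was 0.95 higher than in Atg7-KO (adjusted p = 9.05e-04). Csnk2a2, another catalytic subunit and outside the naming rule, had -0.05 and 0.03 in these 2 comparisons, with no call. Between double-mutant and Atg7-KO livers 5 partners were called higher and 4 lower, and against cont 2 were called, both higher. Of all tested genes, 51.0% were called in the former comparison. The number called in Atg7-KO against cont was 10 of 23 without cont mouse 1, where 56.0% of all genes tested were called.

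NRF2 is freed when p62 holds KEAP1. All 12 NRF2 targets listed were called higher in Atg7-KO against cont, with a median log2 fold change of 2.55, and all 12 were called lower in double-mutant against Atg7-KO livers, with a median of -2.51. Against cont none of the 12 was called in double-mutant livers by edgeR or DESeq2, with a median of 0.02, and 1 (Nqo1) had an unadjusted p under 0.05 in edgeR's test. These genes were listed with that pattern already known, so their number supports nothing here, and they serve as a scale for Sqstm1. Nqo1 was at 6.36, 7.28 and 12.2 normalized CPM in cont, 175, 219 and 249 in Atg7-KO and 11.7, 13.2 and 18.4 in double-mutant livers. Gclc, which makes the first step of glutathione synthesis, rose 4.51-fold in Atg7-KO. Slc7a11, the cystine carrier, and Abcc4 had the largest log2 fold changes of the list, 9.19 and 5.75. The log2 fold change of Sqstm1, 1.24 (SE 0.22), was smaller than that of each of the 12, the nearest being Gclm at 1.34 (SE 0.27), and the difference between genes was not tested. The RNA of NRF2 itself, Nfe2l2, was at 70.9, 205 and 244 normalized CPM in cont, 102, 122 and 121 in Atg7-KO and 168, 71.1 and 106 in double-mutant livers, without a call in any comparison. It was called lower in Atg7-KO against cont when cont mouse 1 was left out, at -0.97 (adjusted p = 0.0160), and with mice 2 and 3 alone, at -0.89 (adjusted p = 0.00991).

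Transcription factors that act on autophagy genes were read beside them. Of 8 such regulators 2 were called in Atg7-KO against cont, both lower (Foxo1 and Atf4, singled out after their values were seen). That number was 4 without cont mouse 1 (7960 of all genes called) and 1 without Atg7-KO mouse 2 (4645 of all genes called), against 6080 of all genes with 9 livers. Relative to Atg7-KO, double-mutant livers had 3 called higher and 2 called lower. Foxo3 was at 16.7, 9.55 and 9.01 normalized CPM in cont, 11.1, 13.0 and 11.4 in Atg7-KO and 1.86, 1.75 and 2.35 in double-mutant livers, a 5.94-fold lower level than in Atg7-KO (log2 fold change -2.57, SE 0.28, adjusted p = 1.34e-04) and than in cont (adjusted p = 0.00322). Hif1a was at 52.7, 26.4 and 18.1 in cont, 48.3, 51.9 and 43.3 in Atg7-KO and 17.1, 16.1 and 15.1 in double-mutant livers, 2.97-fold lower than in Atg7-KO (adjusted p = 0.00353). Against cont, Hif1a in Atg7-KO stood at 0.56 on the log2 scale, and it was called higher without cont mouse 1, at 1.10 (adjusted p = 4.81e-04), and with mice 2 and 3 alone, at 1.09 (adjusted p = 0.00269). Tfeb, a master factor of lysosomal genes, was 1.91-fold higher in double-mutant than in Atg7-KO livers (adjusted p = 0.0159), a call lost without Atg7-KO mouse 2 (adjusted p = 0.0512) or 3 (adjusted p = 0.0562), and stood at 6.53 to 14.9 in cont. Its Atg7-KO against cont difference was called, toward lower levels, without cont mouse 1, at -0.83 (adjusted p = 0.00567), and so it was with mice 2 and 3 alone, at -0.85 (adjusted p = 0.0181).

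Ferritin is the cargo of NCOA4. Fth1, the ferritin heavy chain, was at 2248, 1477 and 1803 normalized CPM in cont, 4900, 4378 and 5084 in Atg7-KO and 2250, 2696 and 2223 in double-mutant livers, and rose 2.60-fold in Atg7-KO (log2 fold change 1.38, SE 0.22, adjusted p = 0.00114). Ftl1, the light chain, rose 2.09-fold (adjusted p = 0.00336) and was still 1.75-fold above cont in double-mutant livers (adjusted p = 0.0387). Among the 8 genes of iron handling, Atg7-KO against cont gave 4 called higher and 2 called lower. Tfrc, the transferrin receptor, rose 2.74-fold and Slc40a1, the iron exporter, 2.67-fold, while Hamp, the iron hormone hepcidin, fell 6.94-fold and Herc2, the ligase that controls NCOA4, 1.93-fold. The call of Herc2 was lost without Atg7-KO mouse 1 (adjusted p = 0.0529). Ncoa4 RNA was not called in any comparison, as given above. Relative to Atg7-KO, 1 gene of the list was called higher and 3 lower in double-mutant livers, and against cont only Ftl1 was called.

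Targets of hypoxia-inducible factor, the transcription factor that drives Bnip3 and Bnip3l under low oxygen, were read for the mitochondrial receptors. Of 14 tested, Atg7-KO against cont gave 4 called higher and 3 called lower, beside 43.7% of all tested genes called, with a median log2 fold change of 0.00. Ndrg1 rose 5.95-fold and Adm 2.59-fold. Vegfa fell 6.44-fold, from 115, 399 and 447 normalized CPM in cont to 48.0, 52.5 and 48.8 in Atg7-KO, and Pdk1 fell 2.54-fold. In double-mutant against Atg7-KO livers 2 were called higher and 4 lower, and against cont only Pdk1 was called, 2.12-fold lower. Car9 had too few counts for the test.

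The letters of 3 regulatory motifs were searched for on both strands in the 250 bases before the RefSeq start of each receptor gene (GRCm38.p6), where 9 of the 10 genes had at least 1 entry. The promoter of Bnip3 is shown because it held the only CACGTG among the receptor windows, which 6.02% of 32851 windows of that length held. The window is chr7:138909507-138909756 on the minus strand, with CACGTG in capitals.
Bnip3 promoter: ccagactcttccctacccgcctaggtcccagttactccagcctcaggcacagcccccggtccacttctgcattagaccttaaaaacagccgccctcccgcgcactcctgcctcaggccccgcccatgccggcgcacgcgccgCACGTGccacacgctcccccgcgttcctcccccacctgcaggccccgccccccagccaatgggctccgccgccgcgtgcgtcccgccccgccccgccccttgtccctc
The match begins 108 bases before the start. It contains ACGTG, the core of a hypoxia response element, on both strands, and that core was in 16.6% of all windows and also in windows of Nbr1, Tax1bp1 and Ncoa4. TGACNNNGC, the core of an antioxidant response element, was in 10.2% of all windows and in 1 window each of Tax1bp1 and Ncoa4. These letters were not in the window of Sqstm1, and sequence outside its 250 bases was not searched. A match is a description of the sequence only.

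Across the 9 livers, genes whose log2 CPM ran most nearly parallel to Sqstm1 among 8508 genes with a mean of at least 10 CPM were Serinc2 (Pearson r = 0.993), Gss (0.991), Atp6v1d (0.987), Tubb5 (0.986) and Ppap2c (0.983). The choice of neighbours depended on the measure, since 0 of these 5 were among the nearest 5 by Spearman rho and 3 by Pearson r on linear CPM. Gss, glutathione synthetase, was at 50.7 normalized CPM on average in cont, 184 in Atg7-KO and 93.3 in double-mutant livers, and Atp6v1d, a subunit of the proton pump of the lysosome, at 33.5, 49.1 and 39.6. Of the other receptors Fundc1 had the highest r with Sqstm1, 0.923, and Optn the lowest, -0.950. The genes nearest to Bnip3 were Rnase4 (0.951), Slc16a10 (0.945), Dleu2 (0.933), Rnf8 (0.923) and Tmem183a (0.923), of which 2 were kept with Spearman rho and 2 on linear CPM, and the r of Bnip3 with Hif1a was -0.775. The 9 points are 3 genotypes of 3 mice that share their libraries, so these values describe how the genotypes are ordered and carry no p.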

How the data were processed

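Gene counts were read from 1 table deposited for the series, with 9 columns that match the labels of 9 livers. The authors made these expected counts (RSEM estimates, of which 8.34% held decimals) from 75-base single-end reads of poly(A) RNA aligned with STAR to mm10, after Trim Galore by the submitters' processing notes. Versions, annotation and the strand setting are not given in the sources used here. RNA was taken with TRIzol by the study's methods and with a column kit by the labels.

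Counts were rounded, filtered with filterByExpr by genotype (13922 of 24411 genes kept), scaled by TMM and fitted with edgeR 4.0.16 (glmQLFit and glmQLFTest) over the 3 genotypes in 1 model. Calls needed a Benjamini-Hochberg adjusted p under 0.05 and a fold change over 1.5. DESeq2 1.42.0 was an alternative. Positions and lengths came from GENCODE vM21 on GRCm38, the build of mm10, and promoter windows from RefSeq (GRCm38.p6). The pipeline was tested on simulated data made from the Atg7-KO against cont livers (13552 genes at a dispersion of 0.08). It recovered 90% of 100 genes changed 4-fold and 25% of 100 changed 2-fold, and called 7 of 13355 unchanged genes. In that setting 2-fold differences can be missed at 3 mice per group. The dispersion was set, not estimated from these livers, and few genes changed beside the 43.7% called in the data. The percents recovered therefore do not give the sensitivity in these livers.

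The 10 receptors and the gene lists were chosen with earlier results of these data known. Named genes were the 10 receptors, Atg7, the 5 Atg8 genes, Keap1, Nfe2l2, Nqo1, Gclc, Hif1a, Foxo3, Tfeb, Fth1, Ftl1, and from the lists of further receptors, partners, NRF2 targets, iron and hypoxia the 2 largest rises and 2 largest falls among called genes whose cont and Atg7-KO livers did not overlap and whose mean was at least 1 CPM. For Sqstm1 and Bnip3 the 5 genes with the highest Pearson r over 9 livers were named. The labels call each column a mouse, and p-values measure the spread between these mice. That spread was estimated for each gene over all 3 genotypes together. The spread of the cont livers therefore also enters the p-values of double-mutant against Atg7-KO livers. For Fundc1 the SD was 4.69, 1.80 and 0.22 normalized CPM in cont, Atg7-KO and double-mutant livers. Its SE was 0.35, 0.35 and 0.36 in the 3 comparisons. Alternatives were other scalings and filters, glmTreat, FDR alone, the mouse number as a block, the 20 most counted genes left out, mice 2 and 3 alone and each liver left out.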

Additional observations from a re-analysis of the deposited data

How the results depend on the processing

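The rise of Sqstm1 and the fall of Nipsnap1 and Atg7 in Atg7-KO against cont livers, and the 4.18-fold difference of Sec62 between double-mutant and Atg7-KO livers, kept their sign in all 19 alternatives. The fall of Optn in Atg7-KO lost its call in the test against a fold of 1.5 alone. Nipsnap1 also lost its call in that test (glmTreat, adjusted p = 0.0788). Other calls among the receptors were lost when single livers were left out, while the effects moved by unequal amounts. In double-mutant against Atg7-KO livers the log2 fold changes ran from 0.69 to 0.73 for Optn and from -1.20 to -1.06 for Fundc1. For Bnip3 they ran from 0.46 to 0.75 there. Fundc1 in Atg7-KO against cont ran from 0.89 to 1.84. With each liver left out in turn (edgeR's quasi-likelihood test), the receptors called higher in Atg7-KO numbered 1 to 3. In double-mutant against Atg7-KO livers 0 to 2 were higher and 0 to 2 lower, and against cont 0 to 4 were higher, the 4 arising without cont mouse 1. Sqstm1 ranged from -0.86 to -0.68 on the log2 scale in double-mutant against Atg7-KO livers and from 0.33 to 0.73 against cont. In Atg7-KO against cont, 1 to 8 of the further receptors, 0 to 2 of the Atg8 genes, 4 to 10 partners and 1 to 4 regulators were called, where 4587 to 7960 of all genes were. The causes were not tested.

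None of the values that changed sign had been called with all 9 livers, and each was uncalled at the setting that turned it, but without cont mouse 1 Fundc1 (0.69, double-mutant against cont), Ncoa4 (0.61) and Gabarap (0.63, both Atg7-KO against cont) were called. With 1 liver left out, the double-mutant against cont values ran from -0.13 to 0.032 for Nbr1, -0.15 to 0.33 for Tollip, -0.23 to 0.20 for Calcoco1, -0.47 to 0.16 for Ncoa4, -0.048 to 0.25 for Bnip3 and -0.26 to 0.69 for Fundc1. The Atg7-KO against cont values ran from -0.013 to 0.61 for Ncoa4, -0.022 to 0.43 for Bnip3l, -0.0020 to 0.63 for Gabarap, -0.17 to 0.53 for Gabarapl2 and -0.22 to 0.35 for Foxo3. The double-mutant against Atg7-KO values ran from -0.19 to 0.037 for Gabarap, -0.036 to 0.27 for Gabarapl1 and -0.37 to 0.26 for Nfe2l2.

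DESeq2 turned Tollip (-0.019) and Fundc1 (-0.037) against cont in double-mutant livers, Foxo3 in Atg7-KO (-0.037) and Nfe2l2 in double-mutant against Atg7-KO livers (-0.030), and DESeq2 size factors in edgeR turned the same 4, at -0.018, -0.045, -0.035 and -0.030. Upper-quartile scaling moved the median of all genes to 0.08, -0.13 and -0.02 in the 3 comparisons. With it, 0 receptors were called higher in double-mutant against Atg7-KO livers and 1 regulator was called in Atg7-KO, Keap1 stood at 0.082 there, Fundc1 at -0.0090 in double-mutant against cont livers, and Gabarapl1 at -0.053, Gabarapl2 at -0.024 and Nfe2l2 at -0.14 in double-mutant against Atg7-KO livers. Without a filter on low counts Calcoco1 stood at 0.0047 in double-mutant against cont and Nfe2l2 at -0.017 in double-mutant against Atg7-KO livers. With at least 10 counts required in every liver, 1 receptor was called higher in the latter comparison and 1 regulator in Atg7-KO, with Calcoco1 at 0.0038, Keap1 at 0.049 and Nfe2l2 at -0.072. Leaving out the 20 most counted genes put Calcoco1 at 0.0012.

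Against a fold change of 1.5 (glmTreat), 1 receptor was called higher (Sqstm1) and 0 lower in Atg7-KO, and 0 higher and 0 lower in double-mutant against Atg7-KO livers, where Sqstm1 kept -0.75 with an adjusted p of 0.198. That test called 0 of the further receptors, 0 Atg8 genes, 2 partners and 0 regulators in Atg7-KO. With mice 2 and 3 alone, 2 receptors were called lower in Atg7-KO, 4 higher in double-mutant against cont livers with Sqstm1 at 0.80 and Ncoa4 at 0.035, and in Atg7-KO 7 further receptors, 2 Atg8 genes and 4 regulators were called, where 7649 of all genes were. In double-mutant against Atg7-KO livers Gabarap was then at 0.048 and Nfe2l2 at -0.46. With the longest coding transcript as length, 5 of the 10 receptors kept their place in the order of levels.

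Over all tested genes 6080, 7095 and 1613 were called in the 3 comparisons, and 3855, 4718 and 253 by glmTreat. In double-mutant against cont livers the number was 2975 with mice 2 and 3 alone and 435 to 3245 with 1 liver left out, 3245 being without cont mouse 1.

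With the mouse number as a block, 5753, 6994 and 988 genes were called, the receptors called were unchanged, and Calcoco1 stood at 0.034 in double-mutant against cont livers. No label says what the numbers stand for, while mouse 1 differed from mice 2 and 3 in Xist and Y-linked counts in every genotype. The mean correlation of deviations was 0.223, -0.0303 and 0.247 within numbers 1, 2 and 3 with a lowest pair of -0.202, and 6 of 9 livers correlated best with their own number.

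At 9671080 to 23285132 counts per liver, the 10 receptors passed the filter on low counts. Fundc1 had the fewest counts of them, down to 57 and 38 in cont mice 2 and 3. Limits given above are 3 mice per group, the spread of the cont livers, sequence shared with other genes and an unknown strand setting. Cell type markers that moved with genotype and unequal Atg7 RNA between the Cre genotypes are further limits. The parts of all these limits were not compared.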
